A study of Homo sapiens with 8 samples.

Results

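The expression of 35 genes of the Fanconi anaemia pathway, homologous recombination and the DNA damage checkpoint was examined in Panc1, an established cell line from a human adenocarcinoma of the pancreatic duct. The genes were chosen by function, as a list of 35 symbols, but with earlier results of these data known. All 35 were found among the 15176 genes of the RNA sequencing table. All 35 also passed the filter for testing, a mean above 0 log2 CPM (the log2 of the read count per library size) over all libraries, which 13112 genes passed. Cells given an siRNA against SF3B1 and kept at 1% oxygen (siSF3B1 hypoxia, 3 libraries) were set against cells given a control siRNA and kept at 1% oxygen (siCtrl hypoxia, 3 libraries). The siCtrl hypoxia cells were set in turn against control siRNA cells kept at 21% oxygen (siCtrl normoxia, 2 libraries). For siSF3B1 hypoxia the labelled time at 1% oxygen is 8 hours, and for siCtrl hypoxia the wording of the labels does not settle it. No siSF3B1 cells at 21% oxygen were among the libraries analysed here; siSF3B1 hypoxia was also set against siCtrl normoxia, where siRNA and oxygen differ together. Nothing in the labels says that libraries of 1 group are separate cultures, so the spread behind each p-value may be technical.

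The Fanconi pathway repairs crosslinks between the strands of DNA. A core complex of FANCA, FANCB, FANCC, FANCE, FANCF, FANCG, FANCL and FANCM, working with the ubiquitin-conjugating enzyme UBE2T, attaches ubiquitin to the FANCD2-FANCI clamp, and the protease USP1 removes it. In homologous recombination BRCA1, BARD1, PALB2 and BRCA2 prepare resected DNA ends for strand exchange with an intact copy, and the checkpoint kinases ATM, ATR, CHEK1 and CHEK2 halt the cell cycle while damage or stalled forks persist. Many of these genes are known to be transcribed most in S phase. SF3B1 is a subunit of the spliceosome that helps to recognise the branch point of introns.

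The targeted gene checked the labels. SF3B1 stood at 5.44, 5.18 and 5.41 log2 CPM in siSF3B1 hypoxia, against 8.86, 8.74 and 8.70 in siCtrl hypoxia. In siCtrl normoxia it stood at 8.88 and 8.87. Read totals over the listed genes, recovered from the even steps of the deposited values, ranged from 20496492 to 25257173 per library. Each of the 35 genes had at least 48 reads in every library. All 10 ductal and epithelial markers were in the table, with a summed level of 10967 to 13474 CPM in siSF3B1 hypoxia, 7263 to 8465 CPM in siCtrl hypoxia and 7395 to 8220 CPM in siCtrl normoxia. The sum is mostly KRT8, KRT18, KRT19 and ANXA2, all higher in siSF3B1 hypoxia. KRT7 was lower, at a mean of 2.09 log2 CPM in siSF3B1 hypoxia against 3.53 in siCtrl hypoxia, and EPCAM stood at 3.02 and 3.03. Of the fibroblast markers 3 of 8 were listed, of the blood and endothelial markers 3 of 9 and of the acinar and endocrine markers 0 of 7. The summed fibroblast markers reached 31.7 to 55.7 CPM in siSF3B1 hypoxia and 30.0 to 61.7 CPM in siCtrl hypoxia. THY1 was higher in siSF3B1 hypoxia (mean 4.23 log2 CPM, against 2.85 in siCtrl hypoxia). COL1A1 (4.34 against 5.11) and PDGFRB (-0.42 against 0.40) had lower means there. The summed markers of blood and endothelium, nearly all CD68, reached 171 to 231 CPM in siSF3B1 hypoxia and 123 to 167 CPM in siCtrl hypoxia. The part of either list in the results was not tested.

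Promoter sequence was described first, and the part of its motifs in the changes with SF3B1 siRNA was not tested. RefSeq promoter windows of 300 bases, from 250 before to 50 after the annotated start (GRCh38.p14), matched 32 of the 35 genes. The windows of FANCI, RMI2 and RAD54B were not used here. The following windows belong to the genes that fell most and have a window here, CLSPN (chr1:35769929-35770228, minus strand) and FANCD2 (chr3:10026187-10026486, plus strand), and to the ends of the scale at the other side, FANCF (chr11:22625774-22626073, minus strand), which rose, and PALB2 (chr16:23641261-23641560, minus strand), the called gene that fell least. Capitals mark letters of the E2F motif, the binding sequence of the E2F factors that drive S phase genes, searched on both strands as TTTCCCGC, TTTCGCGC, TTTGCCGC or TTTGGCGC.
CLSPN: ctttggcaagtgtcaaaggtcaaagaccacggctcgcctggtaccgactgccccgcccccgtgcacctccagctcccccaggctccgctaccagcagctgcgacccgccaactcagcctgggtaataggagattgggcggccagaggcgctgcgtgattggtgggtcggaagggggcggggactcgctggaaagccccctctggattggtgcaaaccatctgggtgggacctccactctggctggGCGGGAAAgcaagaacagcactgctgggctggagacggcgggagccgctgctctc
FANCD2: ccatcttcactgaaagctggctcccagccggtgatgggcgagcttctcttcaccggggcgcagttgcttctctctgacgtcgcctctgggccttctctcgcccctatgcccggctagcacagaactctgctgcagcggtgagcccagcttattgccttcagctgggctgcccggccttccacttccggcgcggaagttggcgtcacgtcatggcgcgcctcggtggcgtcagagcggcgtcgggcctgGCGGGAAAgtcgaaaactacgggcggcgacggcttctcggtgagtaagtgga
FANCF: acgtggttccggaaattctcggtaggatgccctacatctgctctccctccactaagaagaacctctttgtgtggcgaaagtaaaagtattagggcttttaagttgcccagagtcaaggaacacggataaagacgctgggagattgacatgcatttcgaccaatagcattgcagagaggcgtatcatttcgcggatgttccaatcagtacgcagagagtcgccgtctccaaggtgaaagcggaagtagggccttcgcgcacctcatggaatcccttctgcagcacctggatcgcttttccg
PALB2: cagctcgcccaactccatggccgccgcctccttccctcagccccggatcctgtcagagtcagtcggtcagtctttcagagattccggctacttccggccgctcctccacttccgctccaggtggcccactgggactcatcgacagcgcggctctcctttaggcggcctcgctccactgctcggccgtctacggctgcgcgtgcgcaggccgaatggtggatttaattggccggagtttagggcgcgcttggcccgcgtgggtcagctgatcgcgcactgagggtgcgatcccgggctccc
The CLSPN and FANCD2 windows each hold GCGGGAAA, which begins at base -5 in CLSPN and at base -2 in FANCD2 relative to the start. The FANCF and PALB2 windows hold none of these letters. As the windows shown were picked by response, a link between these letters and the falls cannot be read from them.

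These letters were present in 7 of the 32 windows (21.9%), against 5.47% of the 10399 windows of tested genes and 3.33% of all 27305 windows. The 7 genes were FANCA, FANCC, FANCD2, XRCC2, EXO1, TOPBP1 and CLSPN. Of the genes that fell by at least 1 log2 unit, 4 of 14 windows held the letters, and of those that fell by less, 2 of 13. The remaining gene, FANCC, did not pass the test with SF3B1 siRNA although its window holds them at 2 places. The CCAAT box (CCAAT) was present in 18 of 32 windows, 56.2%, against 36.6% of windows of tested genes. The cell cycle homology region (TTTGAA or TTCGAA) was present in 4 of 32, 12.5%, against 10.8%, and the core of the hypoxia response element (ACGTG or GCGTG) in 22 of 32, 68.8%, against 64.2%. All were searched on both strands and counted whether or not they overlapped another motif.

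The hypoxic groups were compared first, to see how the 35 genes differ with SF3B1 siRNA. Of the 35 genes, 30 were lower, 1 was higher and 4 did not pass the test (limma, Benjamini-Hochberg adjusted p under 0.05 over all 13112 genes). The background was high: 66.0% of all tested genes were called, 35% higher and 30.9% lower (4595 and 4055 genes). With libraries scaled by plain read totals, which set the median of all genes at -0.10 in place of 0.03, 3540 genes were higher and 4964 lower, and 1 of the 35 was higher and 33 lower. The median log2 fold change of the 35 genes was -0.93, or 52.3% of the level in siCtrl hypoxia, beside 0.03 over all tested genes. In bulk RNA, fewer cells that transcribe a gene and less RNA per cell cannot be told apart. In 16 of the 35 genes the fall was at least 1 log2 unit, and in 4, CLSPN, FANCD2, RMI2 and FANCI, at least 2. In the ranking of all tested genes by log2 fold change, 18 of the 35 were among the lowest 10 percent and 14 among the lowest 5 percent. Groups did not overlap in 31 genes, 30 with all siSF3B1 libraries below all siCtrl hypoxia libraries and 1 above, where over all tested genes the shares were 32.1% below and 36.4% above.

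**Figure D1:**
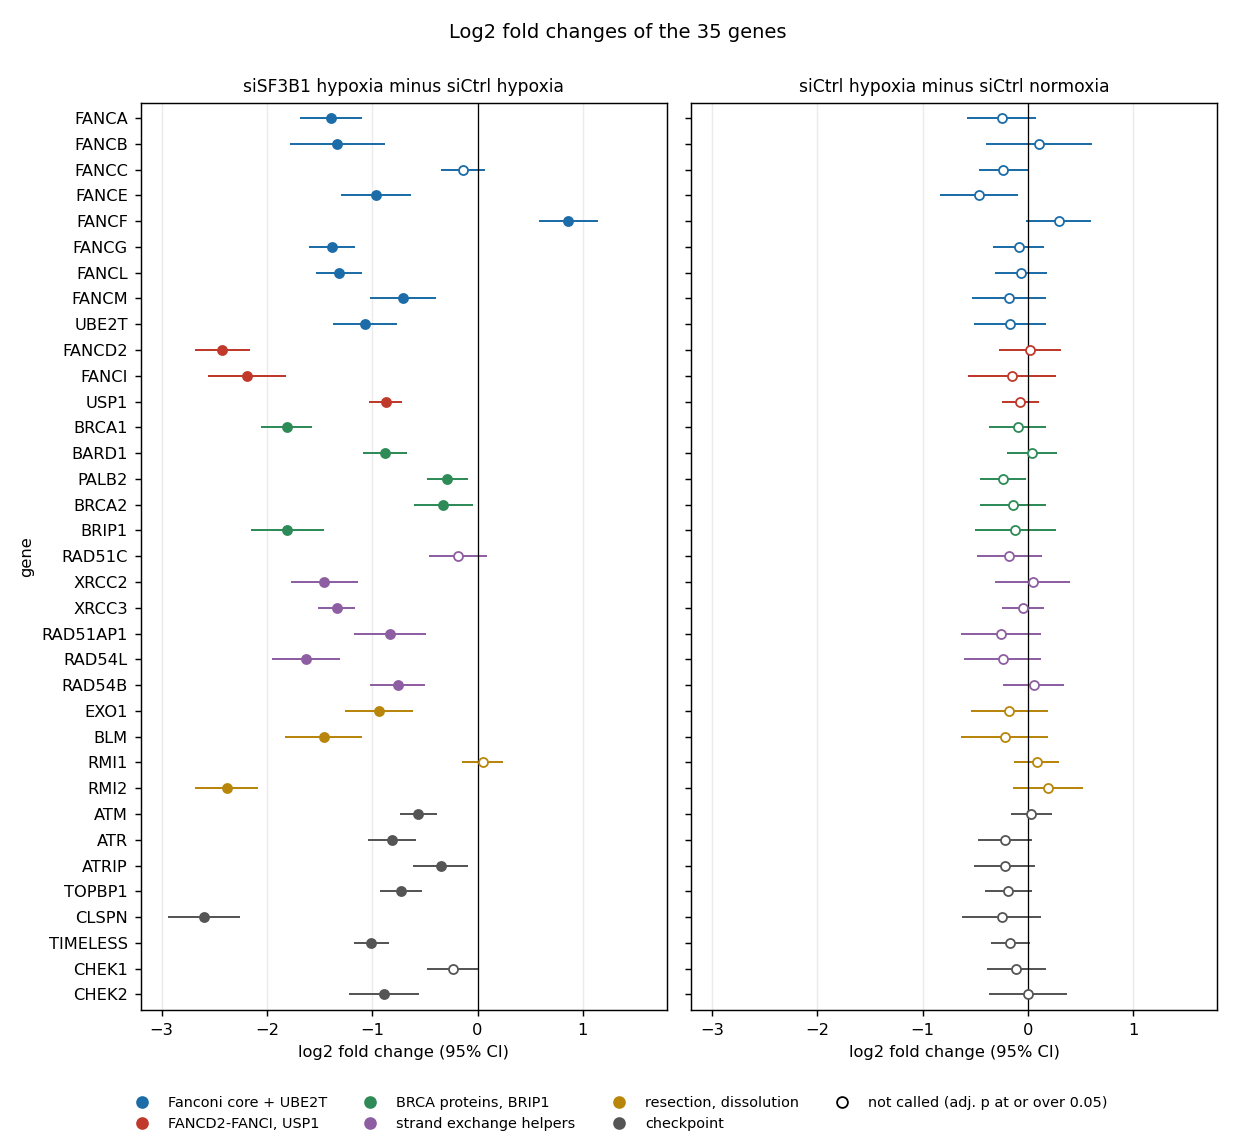
Log2 fold changes of the 35 genes with 95% confidence intervals, coloured by role, for siSF3B1 hypoxia minus siCtrl hypoxia (left) and siCtrl hypoxia minus siCtrl normoxia (right); open points did not pass the test. On the left 30 filled points lie below 0 and FANCF alone above it, and on the right all 35 points are open.

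Both subunits of the Fanconi clamp fell by over 2 log2 units, while no core complex gene fell by as much. FANCD2 (Entrez 2177; GRCh38 chromosome 3 from 10026414 to 10101930, plus strand, up to 44 exons) stood at 2.84, 3.20 and 3.17 log2 CPM in siSF3B1 hypoxia, against 5.40, 5.55 and 5.55 in siCtrl hypoxia. Every siSF3B1 library lay more than 2 log2 units below every siCtrl hypoxia library, and the difference was -2.43 (95% CI -2.69 to -2.16, adjusted p = 1.94e-07). FANCI, its partner in the clamp (chromosome 15 from 89243949 to 89317261, plus strand, up to 38 exons), stood at 4.55, 5.30 and 4.58 in siSF3B1 hypoxia, against 6.95, 7.11 and 6.93 in siCtrl hypoxia. It fell by 2.19 on the log2 scale (SE 0.168, adjusted p = 2.23e-06), with the library numbered 6 above the other siSF3B1 libraries. FANCI shares exon sequence with POLG on the other strand, and since the sources used here do not say whether reads were counted by strand, its value is uncertain to that extent; POLG gave -0.33. USP1, which removes ubiquitin from the clamp, stood at 5.93, 6.13 and 6.09 in siSF3B1 hypoxia, against 6.88, 6.96 and 6.93 in siCtrl hypoxia. Its groups did not overlap either, with a fall of 0.87 (SE 0.0708, adjusted p = 3.14e-06).

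Among the 8 core complex genes and UBE2T, 7 fell, 1 rose and 1 was not called, with a median log2 fold change of -1.07. FANCG, a scaffold subunit, stood at 4.54, 4.73 and 4.80 log2 CPM in siSF3B1 hypoxia, against 5.90, 6.15 and 6.15 in siCtrl hypoxia (log2 fold change -1.38, SE 0.0978, adjusted p = 1.4e-06). FANCL, the subunit with ubiquitin ligase activity, stood at 3.33, 3.34 and 3.16 in siSF3B1 hypoxia, against 4.46, 4.70 and 4.63 in siCtrl hypoxia (-1.32, SE 0.0993, adjusted p = 2.01e-06). In both genes the siSF3B1 libraries formed a tight group well below the control group. FANCL shares exon sequence with VRK2 on the other strand, which itself gave -0.98 (SE 0.0928), so the gene's own value is uncertain. FANCA, which carries the complex into the nucleus with FANCG, stood at 3.17, 3.70 and 3.55 in siSF3B1 hypoxia, against 4.82, 5.0 and 4.77 in siCtrl hypoxia (-1.39, SE 0.132, adjusted p = 8.88e-06); it shares exon sequence with ZNF276, which gave 0.16 and was not called. FANCB fell by 1.33, UBE2T by 1.07, FANCE, which contacts FANCD2, by 0.96, and the translocase FANCM, which brings the complex to DNA, by 0.71. FANCC was not called: it stood at 4.26, 4.41 and 4.43 in siSF3B1 hypoxia and 4.61, 4.54 and 4.36 in siCtrl hypoxia, with overlapping groups and an interval of the difference from -0.35 to 0.07.

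FANCF was the gene that rose. FANCF (Entrez 2188; GRCh38 chromosome 11 from 22622890 to 22625841, minus strand), an adaptor of the core complex, is the one member annotated with 1 exon in every transcript and so has no intron. It stood at 4.06, 3.75 and 3.87 log2 CPM in siSF3B1 hypoxia, against 2.89, 3.02 and 3.19 in siCtrl hypoxia and 2.81 and 2.67 in siCtrl normoxia. All siSF3B1 libraries were above all 5 siCtrl libraries, and the difference in hypoxia was 0.86 (95% CI 0.59 to 1.14, adjusted p = 0.000153), or 1.82-fold. The call and its direction held under every alternative that was run. Per kilobase of exon its level ranked 8 among the 35 in siSF3B1 hypoxia, at 2.33 log2 CPM per kilobase, and 30 in siCtrl hypoxia, at 1.47.

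Exon number was therefore set beside the response for all 35 genes. RMI1, with up to 3 exons, was not called, while XRCC2, also with up to 3, fell by 1.46 and RMI2, with up to 5, fell by 2.38. ATM, with up to 64 exons, fell by 0.56 and ATR, with up to 47, by 0.81, both less than the median of the 35 genes. The next by exon number, FANCD2 (up to 44), FANCA (up to 43) and FANCI (up to 38), fell by 2.43, 1.39 and 2.19, all more than that median. Across the 35 genes the rank correlation of exon number with log2 fold change was -0.24 (Pearson -0.25), and across 12921 annotated tested genes -0.13 (Pearson -0.13); genes are not independent replicates and no p is given. Gene span gave rank correlations of -0.13 over the 35 genes and -0.03 over all, and the mean level gave -0.0003 and 0.12. Of 374 tested genes annotated with 1 exon, 38.2% were higher and 17.9% lower with SF3B1 siRNA, against 35.1% and 31.4% of the 12547 tested genes with more. The part of exon number in the responses was not tested.

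**Figure D2:**
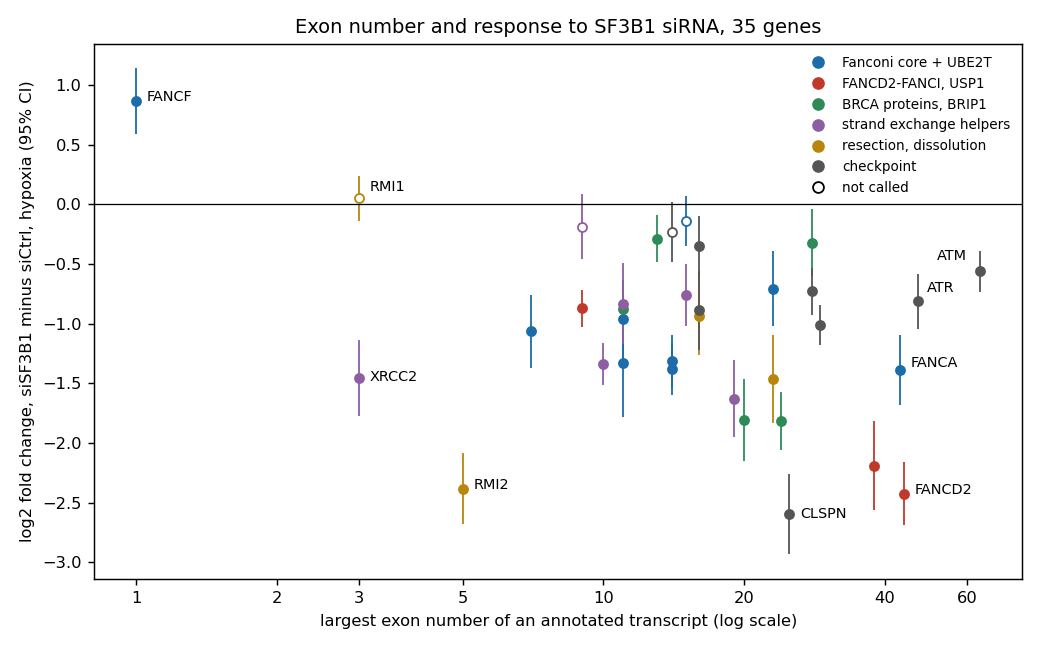
Log2 fold change of each of the 35 genes with SF3B1 siRNA in hypoxia (vertical axis, 95% CI) against the largest exon number of an annotated transcript (horizontal log axis); open points did not pass the test. FANCF, with 1 exon, stands above 0, while genes with 3 to 64 exons lie from 0.05 (RMI1) down to -2.60 (CLSPN).

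All 5 genes of the BRCA group were called lower, by unequal amounts. BRCA1, a ubiquitin ligase subunit that promotes recombination (Entrez 672; chromosome 17 from 43044295 to 43170245, minus strand), stood at 4.11, 4.56 and 4.29 log2 CPM in siSF3B1 hypoxia, against 6.07, 6.20 and 6.14 in siCtrl hypoxia. The groups were separated by more than 1 log2 unit, and the difference was -1.81 (SE 0.109, adjusted p = 5.94e-07), a 3.51-fold fall. BRIP1, the helicase that binds BRCA1, stood at 2.95, 3.54 and 2.95 in siSF3B1 hypoxia, against 4.82, 5.03 and 4.99 in siCtrl hypoxia (-1.81, SE 0.155, adjusted p = 4.5e-06). BARD1, the obligate partner of BRCA1, stood at 3.43, 3.70 and 3.52 in siSF3B1 hypoxia, against 4.39, 4.49 and 4.40 in siCtrl hypoxia (-0.88, SE 0.0956, adjusted p = 2.24e-05). BARD1 and BRCA1 thus both fell without overlap of their groups. The changes of PALB2, which links BRCA1 to BRCA2, and of BRCA2 were smaller and less firm. PALB2 stood at 4.38, 4.61 and 4.49 in siSF3B1 hypoxia, against 4.71, 4.86 and 4.77 in siCtrl hypoxia (-0.29, adjusted p = 0.0146; 0.0584 without the siCtrl hypoxia library numbered 5). BRCA2 stood at 4.48, 5.01 and 4.95 in siSF3B1 hypoxia, against 5.15, 5.20 and 5.06 in siCtrl hypoxia (-0.32, adjusted p = 0.0435). The siSF3B1 library numbered 3 was the low one: without it the BRCA2 difference was -0.16 and the adjusted p 0.105, and the call was also lost without any 1 of 5 other libraries (0.0564 to 0.114).

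The 6 genes that assist strand exchange, XRCC2, XRCC3, RAD51C, RAD51AP1, RAD54L and RAD54B, fell in 5 of 6 cases, with a median of -1.08. XRCC3 stood at 3.85, 3.84 and 3.67 log2 CPM in siSF3B1 hypoxia, against 5.09, 5.14 and 5.15 in siCtrl hypoxia (-1.34, SE 0.0797, adjusted p = 5.63e-07). RAD54L, a motor protein that moves along DNA, stood at 2.92, 3.42 and 3.16 in siSF3B1 hypoxia, against 4.83, 4.99 and 4.56 in siCtrl hypoxia (-1.63, SE 0.147, adjusted p = 6.33e-06). XRCC2 stood at 2.81, 3.36 and 3.21 in siSF3B1 hypoxia, against 4.46, 4.70 and 4.58 in siCtrl hypoxia (-1.46, SE 0.143, adjusted p = 1.11e-05). All 3 had groups more than 1 log2 unit apart. XRCC3 shares exon sequence with KLC1 and RAD54L with LRRC41, both on the other strand and at 0.16 and 0.24, and both member values are uncertain to that extent. RAD51AP1, which promotes strand pairing, fell by 0.83, and RAD54B, related to RAD54L, by 0.76. RAD51C, which forms complexes with XRCC2 or XRCC3, was not called: it stood at 3.27, 3.36 and 2.95 in siSF3B1 hypoxia and 3.37, 3.44 and 3.33 in siCtrl hypoxia, with an interval of the difference from -0.46 to 0.09.

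The complex that dissolves recombination intermediates changed unevenly. RMI2, a small subunit that stabilises it (Entrez 116028; chromosome 16 from 11249619 to 11381662, plus strand, up to 5 exons), stood at 1.33, 1.37 and 1.38 log2 CPM in siSF3B1 hypoxia, against 3.62, 3.84 and 3.78 in siCtrl hypoxia. Its fall of 2.38 (SE 0.134, adjusted p = 4.13e-07) was the third in size among the 35, with at least 48 reads in each siSF3B1 library. BLM, the helicase of the complex, stood at 3.29, 4.03 and 3.65 in siSF3B1 hypoxia, against 5.16, 5.18 and 5.01 in siCtrl hypoxia (-1.46, SE 0.165, adjusted p = 2.84e-05). RMI1, the partner of RMI2, stood at 4.63, 4.90 and 4.84 in siSF3B1 hypoxia and 4.77, 4.76 and 4.70 in siCtrl hypoxia. Its groups overlapped, the difference was 0.05 (95% CI -0.14 to 0.24, adjusted p = 0.64), and no alternative called it. EXO1, a nuclease that resects DNA ends, stood at 3.98, 4.56 and 4.22 in siSF3B1 hypoxia, against 5.05, 5.35 and 5.16 in siCtrl hypoxia (-0.93, SE 0.146, adjusted p = 0.000273).

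In the checkpoint group 7 of 8 genes fell, with a median of -0.77. CLSPN, the claspin adaptor through which ATR activates CHEK1 (Entrez 63967; chromosome 1 from 35720218 to 35769967, minus strand, up to 25 exons), stood at 4.04, 4.67 and 4.51 log2 CPM in siSF3B1 hypoxia, against 6.85, 7.12 and 7.04 in siCtrl hypoxia. This fall of 2.60 (95% CI -2.94 to -2.26, adjusted p = 5.21e-07), or 6.05-fold, was the largest among the 35. TIMELESS, which works with claspin at the replication fork, stood at 5.73, 5.89 and 5.94 in siSF3B1 hypoxia, against 6.81, 6.81 and 6.96 in siCtrl hypoxia (-1.01, SE 0.0752, adjusted p = 1.88e-06). TOPBP1, an activator of ATR, stood at 6.66, 6.97 and 6.72 in siSF3B1 hypoxia, against 7.49, 7.62 and 7.43 in siCtrl hypoxia (-0.73, SE 0.0887, adjusted p = 4.86e-05). The kinases themselves moved less than claspin. CHEK2 fell by 0.89 (it shares exon sequence with HSCB, which rose by 0.42), ATR by 0.81 and ATM by 0.56 (overlapping NPAT, at -0.11). ATRIP, the partner of ATR, fell by 0.35 (adjusted p = 0.0211); the call was lost without the siCtrl hypoxia library numbered 5 (0.0868) and without the siSF3B1 library numbered 9 (0.0783), and the gene shares exon sequence with TREX1.

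CHEK1, the effector kinase of ATR, was not called. It stood at 6.0, 6.42 and 6.11 log2 CPM in siSF3B1 hypoxia and 6.35, 6.52 and 6.36 in siCtrl hypoxia, so the siSF3B1 library numbered 6 lay within the control range. The difference was -0.23 (95% CI -0.48 to 0.02, adjusted p = 0.0904). It was called lower with the library numbers as a block (same value, adjusted p = 0.00329) and without that library (-0.35, adjusted p = 0.0084). CHEK1 also shares exon sequence with STT3A, which gave -0.55 at a level of 7.65 log2 CPM in siSF3B1 hypoxia and 8.20 in siCtrl hypoxia.

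**Figure D3:**
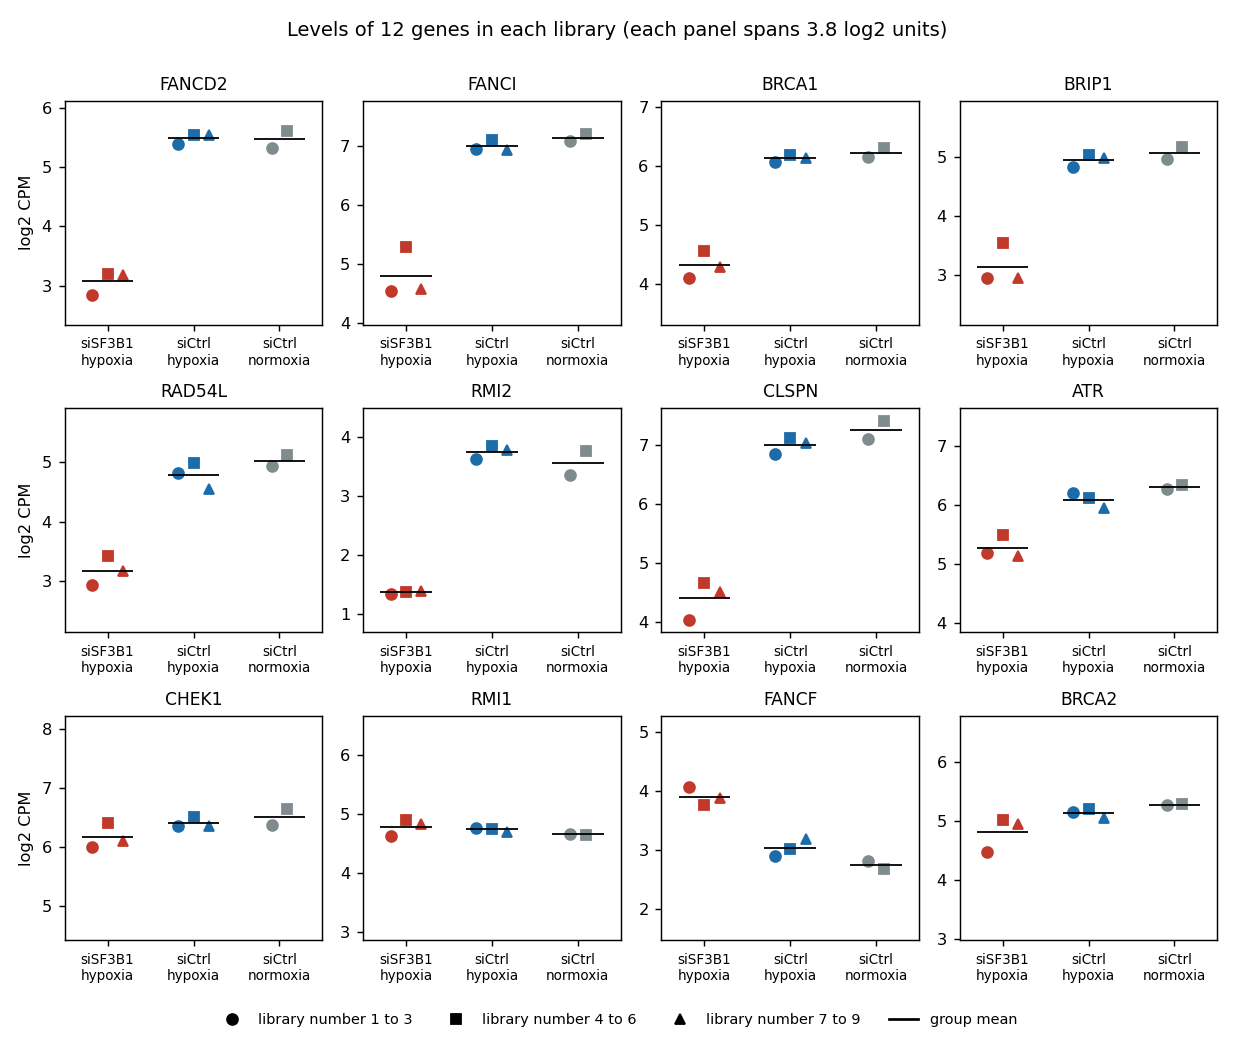
Level of 12 of the genes in each library (log2 CPM, all panels with the same span), with siSF3B1 hypoxia, siCtrl hypoxia and siCtrl normoxia from left to right; symbols give the set of library numbers and bars the group means. The siSF3B1 points lie far below the others in FANCD2, RMI2 and CLSPN, overlap the control points in CHEK1 and RMI1, and lie above them in FANCF.

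Per kilobase of annotated exon, levels were also set side by side between genes. Exon length is the union over annotated transcripts, so the ranks of genes depend in part on the annotation. USP1 was the highest of the 35 in both hypoxic groups, at 3.96 log2 CPM per kilobase in siSF3B1 hypoxia and 4.83 in siCtrl hypoxia. CLSPN stood at rank 14 (1.97) in siSF3B1 hypoxia, against rank 4 (4.57) in siCtrl hypoxia. FANCD2 stood at rank 33 (0.006) in siSF3B1 hypoxia, against rank 19 (2.43) in siCtrl hypoxia. The lowest of the 35 was RMI2 in siSF3B1 hypoxia, at -0.50, and RAD51C in siCtrl hypoxia, at 0.78.

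Libraries deviated together in these genes. Titles number the libraries, and numbers 1 to 3 form 1 set with a library of every group, 4 to 6 another, and 7 to 9 one without a normoxia library; what the numbers stand for is not stated. Of the siSF3B1 libraries number 6 was the highest in 28 of the 35 genes, against 39.0% of all tested genes. Of the siCtrl hypoxia libraries number 5 was the highest in 25 of 35, against 35.6%, and of the siCtrl normoxia libraries number 4 in 31 of 35, against 53.5%. All 3 belong to the set 4 to 6. The mean over the 35 genes was 3.91, 4.27 and 4.06 log2 CPM in the siSF3B1 libraries numbered 3, 6 and 9, and 5.08, 5.18 and 5.09 in the siCtrl hypoxia libraries numbered 2, 5 and 8. Within each set the siSF3B1 library was lower on average, by 1.16, 0.91 and 1.02 log2 units in size, with 34, 33 and 32 of the 35 genes lower. In 32 genes the siSF3B1 library was lower in every set and in FANCF higher in every set, the exceptions being FANCC and RMI1. SF3B1 itself was lowest in library 6, and its part in the deviations was not tested. The counts within sets were not made over all tested genes. Without the set 4 to 6, 29 of the 35 genes were lower and 1 higher, with a median of -1.01. Over all 13112 tested genes 3489 were then lower and 3947 higher.

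Genes of the cell cycle moved in the same comparison. Of 30 genes of the G1/S phase 28 fell with SF3B1 siRNA and the other two did not pass the test, and the median was -1.36 (background 35% higher and 30.9% lower). E2F1, a factor of S phase transcription, fell by 2.28 (SE 0.0829), CDC45, a subunit of the replicative helicase, by 3.06 (SE 0.122), CDC6, a licensing factor, by 2.90 (SE 0.128) and POLA1, the catalytic subunit of the priming polymerase, by 2.5 (SE 0.124). Their mean over the list was 4.71, 4.95 and 4.79 log2 CPM in the siSF3B1 libraries numbered 3, 6 and 9, and 6.20, 6.41 and 6.30 in the siCtrl hypoxia libraries numbered 2, 5 and 8, so number 6 was the highest here too. Of 30 genes of the G2/M phase 18 fell and 6 rose, the median being -0.41 (21 and 3 with plain read totals). The files hold no measure of cell cycle phase per cell, and its part in the falls of the 35 genes was not tested.

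The other genes of these pathways, from lists that hold none of the 35, mostly fell as well. Of 16 other Fanconi pathway genes 10 fell and 6 did not pass the test (median -0.49). Among them were DCLRE1A, a nuclease that processes crosslinked DNA (-1.93, SE 0.138), UHRF1, which senses crosslinks (-1.58, SE 0.0774), RFWD3, a ubiquitin ligase (-1.40, SE 0.0932), and the nuclease subunit MUS81 (-0.96, SE 0.0682). Of 35 other recombination genes 24 fell and 4 rose, with a median of -0.53. The resection factors DNA2 and RBBP8 fell by 2.30 (SE 0.132) and 1.96 (SE 0.0716), and the helicase MCM8 by 1.59 (SE 0.123).

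Other checkpoint genes moved both ways: 11 of 22 fell and 5 rose, with a median of -0.25. HUS1, a subunit of the checkpoint clamp, rose by 1.70 (SE 0.0741, adjusted p = 1.22e-07), to a mean of 6.93 log2 CPM in siSF3B1 hypoxia, against 5.23 in siCtrl hypoxia. The kinases CDC7 and PKMYT1 fell by 1.51 (SE 0.0868) and 1.48 (SE 0.0950), and TP53BP1, which restrains resection, by 0.97 (SE 0.0664). Genes of end joining, the repair route that needs no template, were mostly higher: 8 of 12 rose and 2 fell, with a median of 0.48 (6 and 3, median 0.35, with plain read totals). The Ku subunits XRCC5 and XRCC6 rose by 0.81 (SE 0.0634) and 0.60 (SE 0.0590) and the polymerase POLM by 0.97 (SE 0.123), while PRKDC, the catalytic kinase subunit, fell by 0.76 (SE 0.0859). Of 31 genes of mismatch, base and nucleotide excision repair 21 fell and 5 rose, with a median of -0.54. The ligases LIG1 and LIG3 fell by 1.76 (SE 0.117) and 1.47 (SE 0.0717), XRCC1, the scaffold of LIG3, by 1.67 (SE 0.0866), and MSH3, a mismatch sensor, by 1.62 (SE 0.0928).

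**Figure D4:**
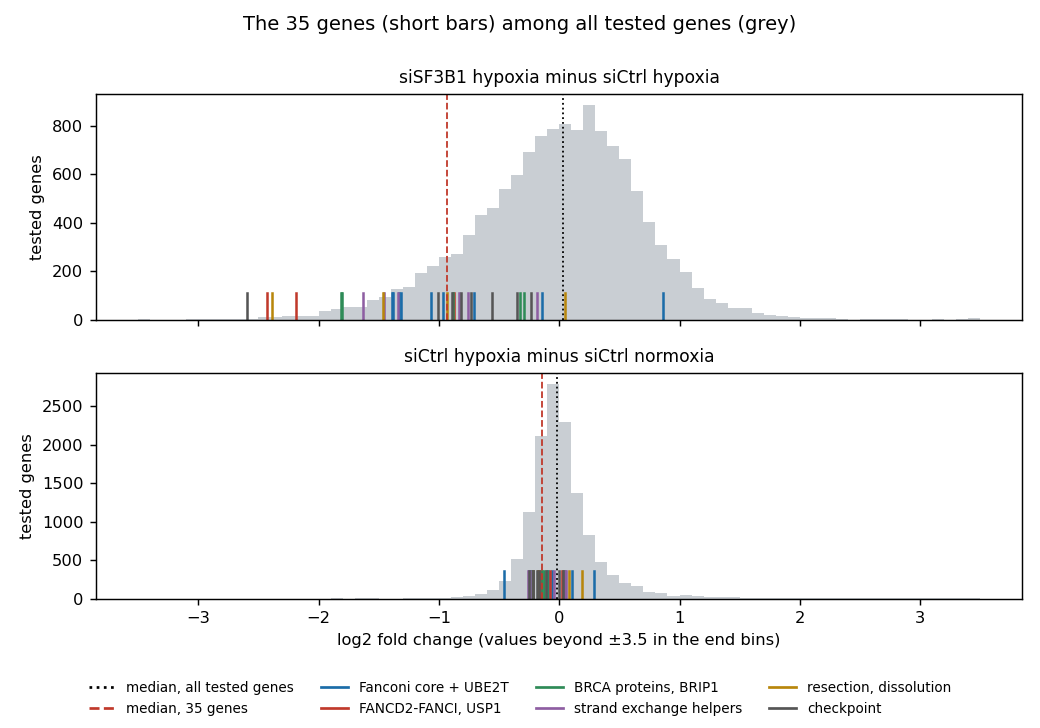
Histograms of the log2 fold changes of all 13112 tested genes (grey) with the 35 genes as short bars coloured by role, for siSF3B1 hypoxia minus siCtrl hypoxia (top) and siCtrl hypoxia minus siCtrl normoxia (bottom). The median of the 35 genes, the dashed line, lies at -0.93 in the top panel beside 0.03 for all tested genes, and at -0.14 in the bottom panel beside -0.02.

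Oxygen was compared next, in cells with the control siRNA. None of the 35 genes was called (limma, and 0 also with voom on recovered reads). In 3 of the 35, FANCC, FANCE and PALB2, the unadjusted p was under 0.05, as it was in 2578 of the 13112 tested genes. In all, 5.65% of tested genes were called, 4.35% higher and 1.30% lower (570 and 171 genes; 505 and 275 with plain read totals). Of the 35 differences 25 were negative and 10 positive, from -0.46 for FANCE to 0.29 for FANCF, and the 95% intervals of all 35 lay between -0.83 and 0.61. The median was -0.14, beside -0.02 over all tested genes. FANCE stood at 3.07, 3.16 and 3.20 log2 CPM in siCtrl hypoxia, against 3.43 and 3.78 in siCtrl normoxia, without overlap. With the library numbers as a block FANCE was called lower (-0.53, adjusted p = 0.0218), as was CLSPN (-0.29, adjusted p = 0.0437), which stood at 6.85, 7.12 and 7.04 in siCtrl hypoxia and 7.10 and 7.41 in siCtrl normoxia, with overlapping groups. With that block 1645 genes were called in all, against 741 without it. The 741 fell to 278 and 306 without the siCtrl normoxia libraries numbered 1 and 4, each left out alone. Without the siCtrl hypoxia libraries numbered 2, 5 and 8 the count was 418, 604 and 411. Without the siSF3B1 libraries numbered 3, 6 and 9 it was 867, 881 and 632. The siCtrl hypoxia libraries lay all below the siCtrl normoxia libraries in 12 of the 35 genes and all above in 2, where over all tested genes the shares were 22.7% and 20.0%. Among the other checkpoint genes RAD9A, a subunit of the checkpoint clamp, fell by 0.74 (SE 0.102, adjusted p = 0.00189) and the phosphatase CDC25B by 0.64 (SE 0.125, adjusted p = 0.0147). ANLN, a mitotic scaffold protein of the G2/M list, rose by 0.67 (SE 0.137, adjusted p = 0.0181), the 1 call among its 30 genes, 9 of which had an unadjusted p under 0.05. ERCC3, a helicase of nucleotide excision repair, fell by 0.32 (SE 0.0755, adjusted p = 0.0352), the 1 call among the 31 excision and mismatch repair genes, with 5 at an unadjusted p under 0.05. No member of the other Fanconi, recombination, end joining or G1/S lists was called, with 0, 4, 4 and 3 genes at an unadjusted p under 0.05 (limma; with the block 0, 3, 0 and 2 were called).

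Set against siCtrl normoxia, siSF3B1 hypoxia cells had 33 of the 35 genes lower, FANCF higher (1.16, SE 0.139) and RMI1 not called (0.13, adjusted p = 0.251). This comparison shares its libraries with those above and is not independent of them. Of all tested genes 62.4% were called, 34.1% higher and 28.3% lower (4473 and 3705 genes; 3161 and 4841 with plain read totals, where 1 of the 35 genes was higher and 33 lower). The median of the 35 genes was -1.11, beside 0.06 over all tested genes. CLSPN gave -2.85 (SE 0.17), FANCD2 -2.41 (SE 0.132), FANCI -2.34 (SE 0.188) and RMI2 -2.19 (SE 0.15). FANCC, RAD51C and CHEK1, not called between the hypoxic groups, passed the test here at -0.37, -0.36 and -0.34 (adjusted p = 0.0101, 0.0403 and 0.0359). Each of the 3 lost the call without the siCtrl normoxia library numbered 4 (0.0705, 0.171 and 0.283), as did BRCA2 (0.0718), and RAD51C and BRCA2 also lost it without number 1 (0.105 and 0.0652). The call of RAD51C was also lost without any 1 siCtrl hypoxia library (0.0517 to 0.0575) or the siSF3B1 library numbered 9 (0.116), and that of CHEK1 without the siSF3B1 libraries numbered 3 (0.0983) or 9 (0.0961).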

How the data were processed

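RNA from 8 Panc1 libraries was sequenced from a strand-specific preparation, per the labels' protocols. The submitters' processing notes list edgeR 3.24.3, STAR 2.7.0a, Trimmomatic 0.35, Subread 1.5.0 with featureCounts, SAMtools 1.9 and GRCh38.p13 with no role for any. The table that the authors deposited holds log2 CPM, and its low values include a prior count; how its 15176 genes were selected, and whether counting used strand, are not stated in the labels. Whole reads were recovered from the steps of the linear values (100% of values within 0.01 read, mean prior count 1.96), which gave the depths. By the same steps, the library size behind the deposited values was 0.927 to 0.949 of the read total in siSF3B1 libraries. In siCtrl libraries it was 1.02 to 1.06 of the read total. A floor of 3 reads equals 0.158 CPM at the lowest depth.

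Values were tested as deposited. Genes with a mean log2 CPM above 0 were kept, and 1 mean per group was fitted over all 8 libraries (residual df 5), using limma 3.58.1 (R 4.3.3) and an intensity trend. Tests were two-sided, with Benjamini-Hochberg adjustment over 13112 genes; adjusted p under 0.05 counts as called. Intervals are 95% from the same fit. Gene models came from GENCODE 29 (GRCh38), matched by Entrez ID or else by symbol, for 14816 genes in all. Exon lengths were the union over transcripts, and promoters came from RefSeq. The table gives 1 value per gene, so splicing was not measured.

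The 35 genes and all other lists were chosen with earlier results of these data known, so no test was made over a list. The naming rule took all 35 genes, library values for up to 3 per role by smallest p, and up to 4 called genes of each other list, 1 of which is not reported here; FANCC, RAD51C, RMI1, CHEK1, PALB2 and BRCA2 were added after their values were seen. The main fit was unpaired, and library numbers paired the samples only in the alternative with the number sets as a block. Deviations from group means correlated within sets of numbers, with r = 0.37, 0.40 and 0.43 over the 3 hypoxic pairs. The alternatives were 2 filters, 3 scalings, another pseudocount, voom, no trend, only the compared groups, the number sets as a block, each library left out and, added after the data were seen, the set 4 to 6 left out.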

Additional observations from a re-analysis of the deposited data

How the results depend on the processing

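With SF3B1 siRNA 28 of the 31 calls among the 35 genes held under every alternative; BRCA2, PALB2 and ATRIP lost theirs under some, and no called gene changed direction. The count of called members ranged from 28 to 32 with 1 library left out, and that of all called genes from 7794 to 8477. The members' median moved with plain read totals, to -1.07 (siRNA) and, against siCtrl normoxia, to -1.28; with 1 library left out the latter ranged from -1.25 to -0.99. Plain read totals called CHEK1, RAD51C and FANCC lower in the siRNA comparison (adjusted p = 0.0126, 0.0437 and 0.0221) and quantile normalization CHEK1 (0.0251). In hypoxia the library numbers as a replicate block gave 2 called members in place of 0 and 1645 called genes in place of 741. With SF3B1 siRNA the block gave 1 member higher and 31 lower, beside 5135 genes higher and 4528 lower over all tested genes. Leaving out 1 library gave 278 to 881 called genes in hypoxia, and leaving out the set 4 to 6 gave 266, with fewer samples in both cases. The cause of the differences between alternatives was not tested. Against siCtrl normoxia 30 of 34 calls held under every alternative. Every member had at least 48 reads in each library; siCtrl normoxia has 2 libraries, and an uncalled hypoxia difference is bounded only by its interval.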

Other observations

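Genes that start within 1000 bases of a member on the other strand were read beside it, from GENCODE 29. There were 11 such pairs, of which 10 partners were tested. With SF3B1 siRNA in hypoxia, 2 partners fell together with their member by over 0.5 log2 units: MOSPD2 (-1.08, SE 0.12) beside FANCB (-1.33), and C12orf4 (-0.71, SE 0.128) beside RAD51AP1 (-0.83). NBR1 rose (0.65, SE 0.0689) beside BRCA1 (-1.81), a pair that rests on the outermost annotated start of BRCA1, and DCTN5 rose (0.46, SE 0.0586) beside PALB2 (-0.29). HNRNPK (-0.02) beside RMI1 (0.05), FKBP3 (0.16) beside FANCM (-0.71), CIDECP1 (-0.24) beside FANCD2 (-2.43) and NPAT (-0.11) beside ATM (-0.56) were not called. ZFYVE21 fell by 0.19 beside XRCC3 (-1.34), and HSCB rose by 0.42 beside CHEK2 (-0.89).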
